A study of Triticum aestivum with 2 samples.

Results

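Gliadins, low-molecular-weight glutenins, avenin-like proteins and alpha-amylase inhibitors of the wheat seed were represented by 29 of the 61290 probe sets on the Wheat Genome Array. The probe sets were chosen by name alone, from 7 design clusters. The clusters Ta.24114, Ta.15268 and Ta.28632 stood for gliadins (20 probe sets), Ta.160 for low-molecular-weight (LMW) glutenin (5), Ta.27712 for an avenin-like protein (1), and Ta.1315 and Ta.23798 for amylase inhibitors (3). Total RNA of 5 tissues of the spring wheat genotype 'Chinese Spring' was mixed at equal concentrations and hybridized to 2 arrays, each labelled replicate 1. The tissues were seed germinated for 2 days in the dark, shoots with the second leaf unfolded, flag leaves with the ligule emerged, spikes at heading before anthesis, and spikes whose flowering was complete to the base. No treatment or mutant was involved, and the plants other than the germinated seed were grown in a greenhouse. The 3'IVT assay labels the complement of the mRNA from an oligo(dT) primer and is read as sense-strand transcription, while the WT assay starts from random primers, labels the opposite strand and is read as antisense-strand transcription. Each assay was hybridized once, so the values carry no error between samples, no test between the assays was made, and the number of arrays limits the precision. Since tissues were pooled, the share of each tissue in a signal cannot be told apart.

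Gliadins and glutenins are the prolamins of the wheat grain, which together form gluten. Gliadins are monomeric, whereas LMW glutenin subunits are joined by disulfide bonds into large polymers that give dough its elasticity. Avenin-like proteins are cysteine-rich relatives of the prolamins, and the alpha-amylase and trypsin inhibitors act against digestive enzymes of insects and mammals. The genes of all these proteins are known for high transcription in the starchy endosperm during grain filling, a stage later than the spikes sampled here.

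The label of the gliadin clusters was checked against the platform annotation. A gene was assigned to 19 of the 29 probe sets, and these represented 11 genes. Of the 20 probe sets in the gliadin clusters, 6 were assigned to genes with a gliadin synonym, namely gli-2 for Ta.15268.1, Ta.24114.1, Ta.24114.10 and Ta.24114.15 and Gli-1 or gamma-gliadin for both probe sets of Ta.28632.1. Another 6, of the design sequences Ta.24114.2, Ta.24114.3, Ta.24114.4 and Ta.24114.7, were assigned to the genes LOC543484 and LOC100037526, for which no synonym was listed. The remaining 8 had no gene assigned, and for these 14 probe sets the name gliadin rests on the design cluster alone. All 5 LMW glutenin probe sets belong to Ta.160, of which 3 were assigned to LOC543213 with the synonyms Glu-D3 and LMW-GS. The avenin-like probe set was assigned to LOC100125692 (avnlb), Ta.1315.1 to LOC542981 (WMAI-1, a monomeric alpha-amylase inhibitor) and Ta.23798.1 to LOC543286 (ATI).

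Signals were read as log2 values against 2 levels of the same array, the lowest probe set of the spiked-in control bioB, which served as the threshold for positive hybridization, and the median of 61115 wheat probe sets. The threshold was 9.69 with the 3'IVT assay and 15.19 with the WT assay, and the medians were 6.63 and 8.01. Above the 3'IVT threshold were 5 of the 29 (17.2%), against 17.3% of all wheat probe sets. In the WT assay none was above it, against 0.367% of all, so that no probe set was above both thresholds (background 0.208%), none above the WT threshold alone (0.159%) and 5 above the 3'IVT threshold alone (17.1%). These shares were near those of the array and do not set the 29 probe sets apart. Above the array median, by definition 50% of all wheat probe sets, were 19 of the 29 with the 3'IVT assay and 23 with the WT assay. These counts are set against wheat probe sets with the same kind of suffix below. The spread between probe sets for 1 region of a spiked-in control was 0.32 log2 units (SD) with the 3'IVT assay and 0.26 with the WT assay, over 27 probe sets of 9 regions. Signals of different probe sets depend on their probe sequences, so an order of signals is not an order of transcript abundance.

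The 5 probe sets above the 3'IVT threshold came from the gliadin clusters, 5 of 20 (25.0%) against 17.3% of the array, and 3 of them had no gene assigned. None of the 9 probe sets of the other groups was above it, and the difference between the groups was not tested. With the median or the highest bioB probe set as the threshold the 5 became 3 or 2. They were singled out after their values were seen. Ta.24114.13.S1_at had the highest 3'IVT signal of the 29, with a log2 value of 14.21, which was 4.52 above the threshold and higher than 99.5% of wheat probe sets. Its WT value of 12.22 was 2.96 below the WT threshold. It has the plain suffix of a probe set designed for 1 transcript, and no gene was assigned to it. Ta.15268.1.S1_x_at, assigned to a gli-2 gene that encodes a gliadin, had 12.19 with the 3'IVT assay and 10.62 with the WT assay. Ta.24114.10.S1_x_at, of another gli-2 gene, had 10.34 and 8.46. Ta.24114.8.S1_at had 9.89 and 11.35, and Ta.24114.8.S1_x_at of the same sequence 9.80 and 10.83. Of the 5 gliadin probe sets above the threshold, only the first 3 exceeded it by more than the spike-in SD. Ta.24114.1.S1_x_at, of a further gli-2 gene, was just below it with 9.47 and 10.48. The 3'IVT values of these last 3 probe sets lay within that SD of the threshold.

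The 20 gliadin probe sets as a group spanned 1.15 to 14.21 in the 3'IVT assay, with a median 1.55 below the threshold and 1.51 above the array median. Without shared probe sets, these became 2.84 below and 0.22 above. In the WT assay they spanned 6.20 to 14.63, with a median 5.96 below the threshold and 1.22 above the array median, or 3.84 below and 3.34 above without shared probe sets. Only Ta.24114.3.S1_at, Ta.24114.7.A1_at, Ta.24114.8.S1_at, Ta.24114.13.S1_at and Ta.28632.1.A1_at then remained. Their medians were the values of the A-lettered Ta.24114.7.A1_at in the 3'IVT assay and of Ta.24114.8.S1_at in the WT assay. Among the S-lettered probe sets not yet given, Ta.24114.12.S1_x_at had 9.13 and 9.49, Ta.24114.11.S1_x_at 8.63 and 9.04, and Ta.24114.18.S1_x_at 8.19 and 8.97, all above both array medians. Lower 3'IVT values were found at Ta.24114.14.S1_x_at (7.62 and 11.58), Ta.24114.2.S1_x_at (7.51 and 8.32) and Ta.24114.6.S1_s_at (5.62 and 8.45), of which the last was below the 3'IVT median and the first had the highest WT value of these 6. The annotation classes overlapped in both assays. The 6 probe sets of genes with a gliadin synonym ranged from 1.15 to 12.19 in the 3'IVT assay (median 7.59). The 6 of genes without a synonym ranged from 4.23 to 8.63 (median 7.18). The 8 without an assigned gene, all S-lettered, ranged from 5.62 to 14.21 (median 8.88). Among S-lettered probe sets alone, genes with a synonym had the highest 3'IVT median, 9.90 over 4 probe sets. It was 8.88 with no gene and 6.92 for the 4 of genes without a synonym. The order of the classes thus depended on the A-lettered probe sets. The WT medians were 7.62 for genes without a synonym, 9.95 for genes with one and 10.16 for probe sets with no gene.

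The 3 S-lettered LMW glutenin probe sets gave similar values in the 3'IVT assay. They were 7.44 at Ta.160.1.S1_x_at, 7.74 at Ta.160.2.S1_x_at and 7.80 at Ta.160.3.S1_x_at, each 1.89 to 2.26 below the threshold. Their range was slightly wider than the spike-in SD of 0.32. Their WT values were 9.48, 9.15 and 10.72, each differing from the others by more than the SD of 0.26. That SD comes from spiked-in controls, of which the lowest bioB probe set had a WT value of 15.19. Over the array, probe sets of 1 sequence with different suffixes differed by a median of 1.31 in the WT assay. The 3 glutenin probe sets carry the suffix of probe sets that may cross-hybridize with related transcripts, so they are not independent readings.

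The amylase inhibitors and the avenin-like protein were below the threshold in both assays. The monomeric inhibitor at Ta.1315.1.S1_at had 8.94 with the 3'IVT assay and 9.95 with the WT assay, and its 3'IVT value was 0.75 below the threshold. The inhibitor ATI was read by a pair of probe sets of 1 sequence, with 6.16 and 9.09 at Ta.23798.1.S1_at and 7.16 and 6.08 at Ta.23798.1.S1_s_at. The avenin-like Ta.27712.1.S1_at had 6.54 and 5.38, the latter being the lowest WT value of the 29 and 2.64 below the array median.

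The highest WT values belonged to A-lettered probe sets of a gamma-gliadin and of LMW glutenin. The letter A in a probe set name marks an antisense-oriented design sequence. Whether the WT assay reads sense transcripts with such probe sets was not tested. Over the array, A-lettered probe sets had medians of 7.31 with the 3'IVT assay and 7.79 with the WT assay. The medians of S-lettered ones were 6.46 and 8.06. Where both orientations of 1 sequence were present, the A-lettered probe set was lower with 3'IVT and higher with WT in 64.9%. Of the 29 probe sets 6 carried the letter A (20.7%), against 17.4% of the array. The gamma-gliadin probe set Ta.28632.1.A1_at had a WT signal of 25326, a log2 value of 14.63, which was 0.56 below the WT threshold and reached by 0.498% of A-lettered wheat probe sets. Its 3'IVT value was 3.92, whereas its S-lettered counterpart Ta.28632.1.S1_x_at had 5.70 with the 3'IVT assay and 9.42 with the WT assay. The LMW glutenin probe set Ta.160.2.A1_at had 1.74 with the 3'IVT assay and 13.89 with the WT assay, a WT value reached by 0.817% of A-lettered probe sets. Ta.160.3.A1_x_at had 5.57 and 13.12, the latter reached by 1.42% of A-lettered probe sets. These 3 shares are over all A-lettered probe sets. The 3 probe sets each have an S-lettered partner, and such A-lettered probe sets were more often bright in the WT assay, as given below. All 3 had 3'IVT values below the array median, whereas their WT values exceeded those of all 23 S-lettered probe sets, the highest of which was 12.22.

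The other A-lettered probe sets did not show this order. Ta.24114.15.A1_x_at, assigned to a gli-2 gene, had the lowest 3'IVT value of the 29 with 1.15, and 7.62 in the WT assay, below the array median. Ta.24114.4.A1_x_at of LOC543484 had 8.63 and 6.39, and Ta.24114.7.A1_at of LOC100037526 had 6.85 and 6.99. For the last, the S-lettered Ta.24114.7.S1_a_at had 6.32 with the 3'IVT assay and 10.67 with the WT assay, so the S-lettered probe set was the brighter one in the WT assay.

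Both orientations of 1 design sequence were thus on the array for 4 of the sequences, among 168 on the whole array. The A-lettered probe set was lower than the S-lettered one with the 3'IVT assay and higher with the WT assay in 3 of the 4. Over the array this was so for 64.9% of the sequences, so the 3 of 4 are no result about seed proteins. The WT difference of A minus S was 5.21 log2 units for Ta.28632.1, 4.74 for Ta.160.2, 2.40 for Ta.160.3 and -3.68 for Ta.24114.7, against a median of 2.34 over the 168. The 3'IVT difference was -1.78, -6.00, -2.23 and 0.53, against a median of -2.15. The WT differences of Ta.28632.1 and Ta.160.2 exceeded those of 90.5% and 86.3% of the sequences, and that of Ta.24114.7 exceeded 2.38%.

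Reporter genes of other organisms, which wheat lacks, gave a second and lower reference level. Their highest probe set reached 7.02 with the 3'IVT assay and 11.76 with the WT assay (63 probe sets). Above the highest reporter gene were 18 of the 29 probe sets (62.1%) in the 3'IVT assay, against 44.9% of the array. In the WT assay 4 of the 29 (13.8%) were above it, against 3.26% of the array. Of these 4, 3 were the A-lettered probe sets of Ta.28632.1, Ta.160.2 and Ta.160.3, and the other was Ta.24114.13.S1_at. Among the A-lettered probe sets that have an S-lettered partner on the array, 29.3% were above the highest reporter gene in the WT assay, compared with 3.28% of all A-lettered ones. None of the other 22 S-lettered probe sets exceeded the highest reporter gene there.

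The suffix of a name tells whether probes are shared. Of the 29 probe sets 20 (69.0%) carried a suffix for probes shared between transcripts or gene family members, against 20.8% of the array. Shared probe sets were above the 3'IVT threshold in 3 of these 20 (15.0%), whereas 36.6% of all shared wheat probe sets were. The 9 with the plain suffix had 2 above it (22.2%), against 12.2% over the array. Both shares rest on 2 or 3 probe sets. Where 1 sequence was read by probe sets with different suffixes the values could differ widely. Ta.24114.8 differed by 0.09 with the 3'IVT assay and 0.52 with the WT assay, while the values of Ta.24114.3.S1_a_at were 8.09 and 8.26, and those of Ta.24114.3.S1_at 4.23 and 6.20. Over 6186 such pairs of the array the median difference was 0.93 with the 3'IVT assay and 1.31 with the WT assay. These pairs were named after their values were seen.

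Other probe sets of the same genes, which the choice by name did not include, gave different values. The gamma-gliadin gene LOC543214 was also read by Ta.30782.4.S1_at, with 9.90 in the 3'IVT assay, 0.20 above the threshold, and 7.10 in the WT assay. Its 3 probe sets thus spanned 5.98 log2 units with the 3'IVT assay and 7.52 with the WT assay. The lowest 3'IVT value and the highest WT value were both of the A-lettered Ta.28632.1.A1_at. The S-lettered Ta.28632.1.S1_x_at had 5.70 and 9.42. The avenin-like gene LOC100125692 had 12.13 and 11.19 at Ta.27777.1.S1_at, but 2.46 and 6.16 at Ta.27777.1.S2_at and 4.09 and 5.86 at Ta.27777.1.S2_s_at. The gli-2 gene LOC543212 had 8.67 and 9.56 at Ta.6699.1.S1_at, beside the values above of Ta.24114.10.S1_x_at. The ATI gene had 7.07 and 4.69 at Ta.58.1.S1_at. For the gamma-gliadin gene, the avenin-like gene and the gli-2 gene LOC543212, probe sets of 1 gene thus lay on both sides of the 3'IVT threshold. The gamma-gliadin probe set above it exceeded it by less than the spike-in SD of 0.32.

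Genes that act beside the storage proteins in the seed were searched in the annotation. From the list of terms for the seed, 6 further probe sets matched, of which the one for a gene with the synonym TaGlu1a matched by its letters alone and was left out. Of the other 5, 3 (60%) were above the 3'IVT threshold, against 17.3% of the array, and none above the WT threshold, against 0.367%. These were the gamma-gliadin probe set named above, Ta.3.1.S1_at (11.24 and 10.69), which matched the alpha-amylase term by the synonym amy1 of its gene LOC543318 but also carries the synonym BMY1, so that its kind of amylase was not settled, and Ta.242.1.S1_at of the small subunit of ADP-glucose pyrophosphorylase, an enzyme of starch synthesis (11.88 and 10.15). Granule-bound starch synthase (waxy), which makes amylose in the endosperm, had 7.56 and 6.86 at Ta.2795.1.S1_a_at. For puroindolines, storage globulins, protein folding and the transcription factors of the prolamin genes no probe set matched. A second list, of seed proteins recognised in the synonyms, held 22 probe sets for avenin-like proteins, ATI, serpins, purothionins and the embryo protein Em. Of these, 1 (4.55%) was above the 3'IVT threshold (Ta.27777.1.S1_at), against 17.3% of the array, and none above the WT threshold, against 0.367%. The 5 purothionin probe sets ranged from 6.67 to 9.50 in the 3'IVT assay, the 5 of Em from 7.95 to 9.55 and the 5 serpin probe sets, protease inhibitors of the grain, from 2.70 to 7.83.

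As markers of leaf tissue, probe sets of RUBISCO activase, the RUBISCO small subunit, carbonic anhydrase and a chlorophyll a/b binding protein were read. By the strand-specific RT-PCR of the paper, sense transcripts of the small subunit and carbonic anhydrase were present in every tissue of the pool. Those of RUBISCO activase were missing only in germinated seed. The marker signals therefore do not single out leaf tissue. Of the 18 marker probe sets 15 (83.3%) were above the 3'IVT threshold, against 17.3% of the array. In the WT assay 8 (44.4%) were above the threshold, against 0.367%. For RUBISCO activase, the small subunit and carbonic anhydrase, the paper listed probe sets because they exceeded its thresholds on these arrays. The same held for a chlorophyll a/b binding protein. These counts are therefore not an independent check. All 12 with the letter S had 3'IVT values between 13.87 and 15.57. Of the 23 S-lettered seed protein probe sets only Ta.24114.13.S1_at, at 14.21, reached this range. The A-lettered markers had 6.63 for RUBISCO activase and 7.32 and 7.69 for the small subunit. For the chlorophyll a/b binding protein they had 12.49 to 14.81. All 18 markers thus spanned 6.63 to 15.57, which overlapped the 1.15 to 14.21 of the 29 seed protein probe sets.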

How the data were processed

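The deposited table gives for every probe set a linear intensity on each array, computed by the authors with MAS5 per the labels, which scales each array on its own (2% trimmed means of 500.3 and 500.2). The study's own lists used RMA values and Present calls, which were not used here. Log2 of the signals was taken without normalization between the arrays. Affymetrix controls (111) and reporter genes (64) were left out, which left 61115 wheat probe sets. The threshold was the lowest of 9 bioB probe sets. Reporter genes were used for background without 1 in the range of creX. Percentages over the array are counts of probe sets, which are not independent.

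Genes came from the platform annotation (1273 of 61290 probe sets have 1 gene symbol, none has several), of which 1272 were matched by gene identifier to RefSeq names of assembly IWGSC CS RefSeq v2.1. No sequence or genome position was used here. The members and lists were chosen with earlier results of these data known, and the second seed list after the annotation had been seen. Named were, in each cluster, the probe sets with the highest and lowest 3'IVT and the highest WT signal, all of clusters with at most 6, every A-lettered probe set with its S partner, and any within 1 log2 unit below the WT threshold; others are named as chosen later. The counting was tested on simulated data. Calculations ran in Python 3.11.15 (pandas 2.3.3, numpy 2.4.6, scipy 1.17.1).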

Additional observations from a re-analysis of the deposited data

How the results depend on the processing

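Of 113 alternative values, 58 were called the same, 53 moved and 2 changed sign, and the cause was not tested. Medians were compared by a set spread, while counts were the same where equal or near equal. Counts of 0 that stayed 0 are among the 58. The count above the WT threshold was 0 also with the median or highest bioB probe set, without shared probe sets and with each design sequence counted once. The 5 probe sets above the 3'IVT threshold, and above it alone, became 3 with the median bioB probe set as the threshold, and 2 with the highest or without shared probe sets. The following are group medians in log2 units, 3'IVT first and WT second. Without shared probe sets, medians over the threshold were -7.96 and -1.29 for LMW glutenin, -2.14 and -5.67 for amylase inhibitors, and -2.84 and -3.84 for gliadins; over the array median they were -4.89 (changed sign) and 5.88, 0.92 and 1.51, and 0.22 and 3.34. Only Ta.160.2.A1_at then remained for LMW glutenin. For gliadins the values were those of Ta.24114.7.A1_at with the 3'IVT assay and of Ta.24114.8.S1_at with the WT assay. With the median bioB probe set, values over the threshold were -2.69 and -5.42 (LMW glutenin), -2.97 and -7.05 (amylase inhibitors), -3.59 and -10.77 (avenin-like), and -1.99 and -6.91 (gliadins). After quantile normalization they were -1.75 and -3.85 for LMW glutenin and -2.49 and -10.41 for the avenin-like protein, and in 3'IVT -1.97 for amylase inhibitors and -1.21 for gliadins, while WT values over the array median were 3.60, 1.48, -2.96 and 1.68 in the order LMW glutenin, amylase inhibitors, avenin-like and gliadins. A filter on low signals gave, over the array median, 0.24 and 2.36, -0.038 (changed sign) and 0.73, -0.66 and -2.99, and 0.94 and 0.87 in that order. Counting each design sequence once gave amylase inhibitors -1.89 and -6.42 over the threshold and 1.17 and 0.76 over the array median. A pseudocount of 16 gave the avenin-like WT value as -2.25 over the array median. Chosen after seeing the data, S-lettered LMW glutenin alone had WT values of -5.70 over the threshold and 1.47 over the array median. Also chosen then, gliadin genes with a gliadin synonym, over both letters, had -2.11 and -5.24 over the threshold and 0.96 and 1.94 over the array median.

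No paired analysis was possible because each assay was hybridized once. Leaving out a replicate was not possible for the same reason. The count of promoter motifs was not run, since no sequences were used here. Signals between the reporter genes and bioB are not positive by the threshold used, and their absence from the transcriptome was not shown.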
